A study of Mus musculus with 50 samples.

Results

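Nuclear receptors are transcription factors of a single family, and 46 of their genes, chosen by name from a list of the family, were found among the 35750 genes of a table of mouse embryo RNA. They were the orphan receptors of the NR2, NR4, NR5 and NR6 subfamilies, the steroid, retinoid, thyroid hormone and vitamin D receptors, the estrogen-related receptors, the ROR and REV-ERB receptors and the lipid and bile acid sensors. The rule used names alone and no measured value, although the list was chosen with earlier results of these data known.

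A nuclear receptor binds DNA through a pair of zinc fingers and, in most cases, a small lipophilic ligand through a pocket in its other main domain. Without an activating ligand many of these receptors recruit corepressors, and with one they exchange them for coactivators, whereas steroid receptors wait in a complex of chaperones until their hormone arrives. Retinoid, thyroid hormone and lipid-sensing receptors pair with an RXR partner, and most members outside the steroid group recognise copies of the half-site AGGTCA. In the early mouse embryo Nr5a2 is known for binding genes that are switched on in the 2-cell embryo, and Esrrb for its place among the pluripotency factors.

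RNA was sequenced from pools of 5 wild-type C57BL6/J embryos. All came from superovulated females mated to males of the same strain and were cultured from the zygote on. Zygotes were injected 24 h after hCG, the hormone that triggers ovulation, with 200 ng/ul of mRNA for Duxbl (a double homeobox transcription factor, here tagged with V5 and encoded ahead of a 2A peptide and of mCherry carrying a nuclear signal) or of mRNA for nuclear mCherry alone, or were left uninjected. Collection was 28 to 30 h after hCG for late 1-cell embryos (late 1C), 32 h for early 2-cell embryos (early 2C) and 48 h for late 2-cell embryos (late 2C). Uninjected and mCherry embryos gave 6 libraries at each stage, and Duxbl embryos gave 4, 5 and 5. The Duxbl embryos carried an excess of Duxbl from the 1-cell stage on, over their own gene, which was intact. The Duxbl1 gene, which counts injected and embryonic transcripts together, had a late 2C mean of 2856 CPM (SD 1119, n = 5) with Duxbl mRNA and of 329 (SD 138, n = 6) with mCherry mRNA, without overlap. Nothing says that tubes came from separate matings, so p-values measure the spread between tubes, which may be technical. Deposited totals, which the authors had scaled, ran from 22.5 to 27.0 M per late 1C library, from 22.3 to 26.4 M per early 2C library and from 12.04 to 22.5 M per late 2C library. The Duxbl library numbered 4 at late 2C stood apart from its group, with a mean correlation of 0.863 with the others, which had 0.889 to 0.903.

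Levels are given as CPM, here the deposited values brought to a common library total by trimmed means, and differences as log2 of (CPM + 1), a scale that understates the change of genes with low values. A CPM is a share of the RNA in a pool, so fewer transcripts of a gene and more of all others cannot be told apart. A call is an adjusted p under 0.05 in limma with Benjamini-Hochberg adjustment over all genes tested.

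The promoters of 3 members are shown. On the scale of log2 (CPM + 1), Nr2f1 and Nr2f2 rose most within Duxbl embryos between early and late 2C, with Nr4a2 close behind Nr2f2. Nr5a2 was the furthest below its level in mCherry embryos at late 2C. Each promoter shown is the 300 bases around the most upstream start listed by RefSeq (GRCm38.p6), written 5' to 3' on the strand of the gene. Capitals mark AGGTCA or its reverse complement TGACCT. The Nr2f1 window is chr13:78198824-78199123, the Nr2f2 window chr7:70366697-70366996 and the Nr5a2 window chr1:136960399-136960698, all on the minus strand.
Nr2f1: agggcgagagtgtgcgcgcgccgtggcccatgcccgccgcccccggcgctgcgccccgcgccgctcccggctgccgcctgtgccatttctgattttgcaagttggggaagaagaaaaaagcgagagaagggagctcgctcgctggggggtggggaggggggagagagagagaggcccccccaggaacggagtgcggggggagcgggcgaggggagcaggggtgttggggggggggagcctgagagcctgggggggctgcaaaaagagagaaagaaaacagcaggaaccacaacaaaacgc
Nr2f2: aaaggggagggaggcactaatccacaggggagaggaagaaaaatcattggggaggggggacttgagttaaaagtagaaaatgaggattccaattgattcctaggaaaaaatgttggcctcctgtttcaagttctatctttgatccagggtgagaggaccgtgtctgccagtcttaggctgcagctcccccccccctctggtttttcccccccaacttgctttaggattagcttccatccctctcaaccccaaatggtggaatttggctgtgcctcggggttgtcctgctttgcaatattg
Nr5a2: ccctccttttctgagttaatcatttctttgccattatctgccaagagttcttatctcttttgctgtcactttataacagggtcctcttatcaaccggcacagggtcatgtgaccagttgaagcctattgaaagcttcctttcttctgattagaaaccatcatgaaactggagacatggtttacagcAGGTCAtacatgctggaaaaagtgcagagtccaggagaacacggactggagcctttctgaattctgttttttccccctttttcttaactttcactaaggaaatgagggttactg
The Nr2f1 window held 68% G and C and 23 CpG, the Nr2f2 window 49.7% and 2, and the Nr5a2 window 42% and 2. The Nr5a2 window had 1 copy of the half-site, at position 187, and the other two had none. RefSeq promoters were found for 42 of the 46 genes, 63 windows in all, and the half-site in either direction was in 12 of these (19%), against 16.3% of 32851 promoters of all genes. The longer form AAGGTCA, in either direction and itself containing the half-site, was in 4.76% of the members' windows and in 4.72% of all. These matches are letters in a window and not measured sites.

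In uninjected embryos the set was dominated by a few genes, and the order turned over between early and late 2C. Per kilobase of exon, so that genes can be compared, Esr2 (the estrogen receptor beta) had 75.2 ± 9.6 CPM per kb at early 2C (SD, n = 6) and Nr1d1 (the heme receptor REV-ERB alpha) had 74.0 ± 5.0, a difference within their spread. Nr2e1 (the tailless receptor) followed with 38.0 ± 4.2, Nr6a1 (germ cell nuclear factor) with 25.2 ± 8.3 and Rora (a receptor of the clock and of the cerebellum) with 17.1 ± 1.5 CPM per kb. At late 2C the first places went to Nr6a1 with 15.4 ± 3.0, Nr1h2 (the oxysterol receptor LXR beta) with 14.4 ± 9.3 and Nr5a2 with 11.6 ± 3.9 CPM per kb, which overlapped one another within 1 SD.

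In the normal course, no member was called between late 1C and early 2C in uninjected embryos, of 44 tested (2.93% of all genes were called, and 1 member had an unadjusted p under 0.05). Between early and late 2C 10 members rose and 17 fell, 61.4% of the 44 tested, against 56.9% of all genes, of which 30.3% rose and 26.6% fell. The median change of the members was -0.32 on the log2 scale, and that of all genes was 0.02. The steepest falls on this scale were those of Pparg (the fat cell receptor PPAR gamma), Nr1d1, Nr2e3 (a photoreceptor gene), Nr2e1 and Esr2, with log2 changes of -4.16, -4.12, -3.64, -3.25 and -3.14. Nr2e3 overlaps the noncoding gene Gm15507 on the same strand over 3149 bp. In uninjected embryos Gm15507 had a mean of 348.1 CPM at early 2C and of 32.31 at late 2C, against 45.72 and 2.545 for Nr2e3. The part of this overlap in the fall of Nr2e3 was not tested. The steepest rises were those of Nr2c2 (the testicular receptor 4), Rarg (the retinoic acid receptor gamma) and Nr1h3 (the oxysterol receptor LXR alpha), of 3.78, 3.12 and 2.04.

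**Figure D1:**
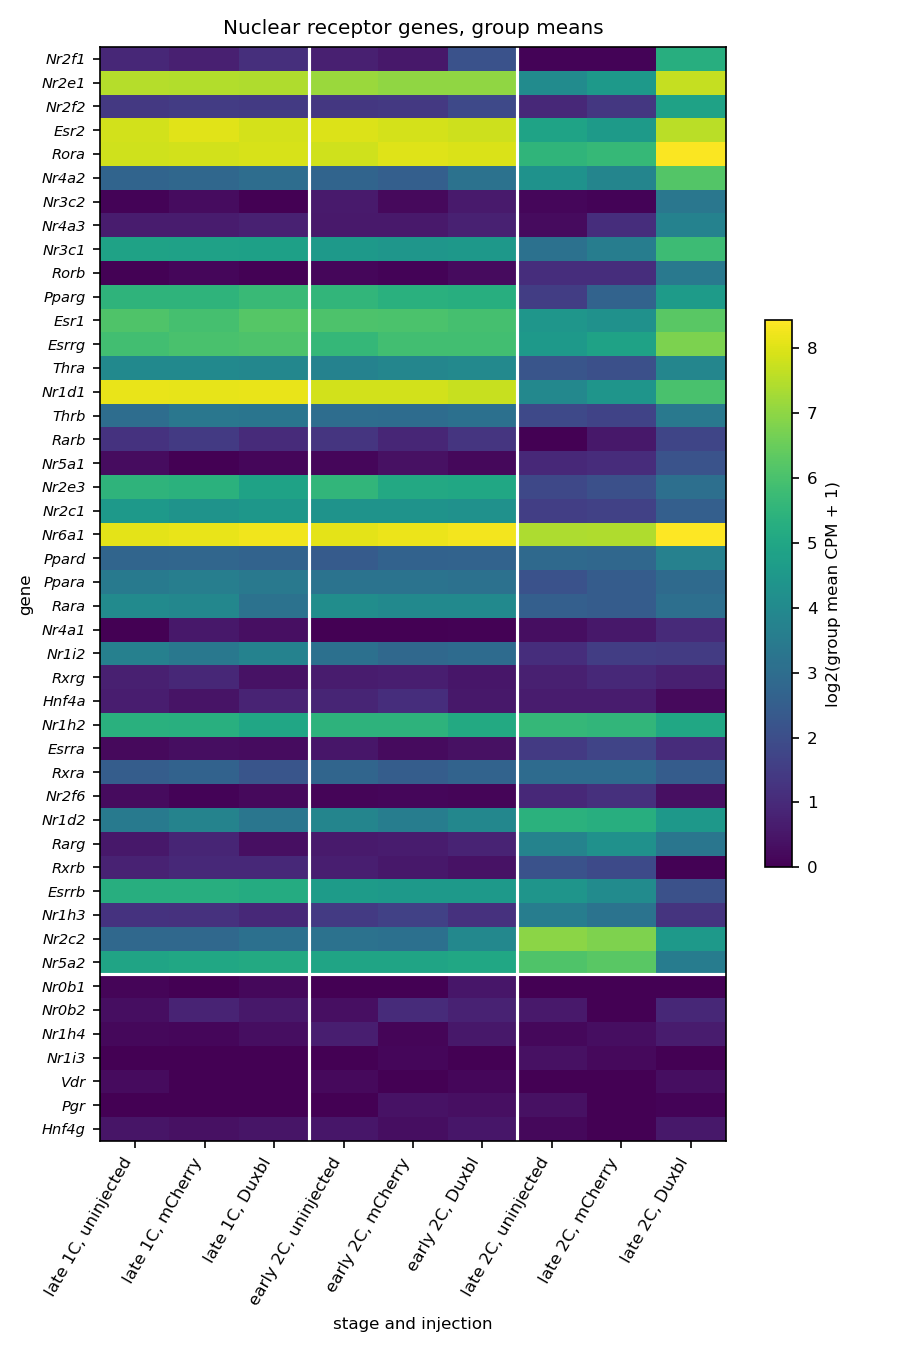
The mean of each member (vertical axis) in each of the 9 groups (horizontal axis) is drawn as log2 of the group mean CPM + 1, with 39 members ordered by their difference between Duxbl and mCherry embryos at late 2C and the 7 members not tested there below the white line. Uninjected and mCherry columns look alike at each stage, and the late 2C Duxbl column keeps the bright values of Esr2, Rora, Nr2e1 and Nr6a1 seen at the earlier stages.

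No member was called between mCherry and uninjected embryos. In the fits by stage limma called 0 of 36 members tested at late 1C, 0 of 37 at early 2C and 0 of 39 at late 2C, and 0% of all genes. A fit of all 9 groups called 40 of all genes at late 2C, and 0 members. Members with an unadjusted p under 0.05 numbered 1, 0 and 1, and with voom weights the counts of members were 0 at every stage. The member at late 2C was Pparg, whose mCherry mean was 5.43 ± 3.2 CPM and uninjected mean 1.87 ± 1.3 (SD, n = 6 per group, limma adjusted p = 1.0).

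No member was called between Duxbl and mCherry embryos at the earlier stages. At late 1C limma called 0 of 36 members (0.0193% of all genes were called, 0.00481% higher and 0.0144% lower, and Rara alone had an unadjusted p under 0.05, with a limma adjusted p of 0.841), and at early 2C 0 of 37 (0.420% of all genes, 0.0283% higher and 0.392% lower). At late 1C the groups were without overlap for 0 members, against 0.741% of all genes tested with Duxbl higher and 0.674% with Duxbl lower. At early 2C 2 of the 37 members had an unadjusted p under 0.05, as had 1011 of the 21180 genes tested. These members were Nr2c2 and Nr2f1, both above mCherry embryos here, and at late 2C Nr2c2 was lower and Nr2f1 higher. Nr2c2 had 11.1, 12.9, 22.6, 10.5 and 15.0 CPM in the Duxbl libraries numbered 3 to 7, and a lowest, median and highest value of 5.23, 7.55 and 9.65 in mCherry embryos. All 5 Duxbl libraries lay above all 6 mCherry libraries, as for 0.170% of all genes tested (0.807% lay below, and 0 members), and the log2 difference was 0.81 (SE 0.24, limma adjusted p = 0.294). Nr2f1 had 0.689, 3.36, 10.4, 1.41 and 1.06 CPM in the same Duxbl libraries, against 0.0422, 0.530 and 0.847 in mCherry embryos. Of the Duxbl libraries 4 lay above every mCherry library, that numbered 5 the furthest, and number 3 lay within their range (log2 difference 1.22, SE 0.39, limma adjusted p = 0.372).

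At late 2C limma called 26 of 39 members between Duxbl and mCherry embryos, 18 higher and 8 lower (all genes: 55.9% called, 26.8% higher and 29.1% lower). Among the members 46.2% were higher and 20.5% lower, and their median difference was 1.00 on the log2 scale, against -0.05 for all genes. Without the Duxbl library that stood apart, 18 members were higher and 7 lower. The 5 Duxbl libraries lay wholly above the 6 mCherry libraries for 14 members (35.9%, against 15.7% of all genes tested) and wholly below them for 3 (7.69%, against 18.8%). The difference of the Duxbl effect between late 2C and early 2C was called for 25 of 44 members, 17 higher and 8 lower (44.9% of all genes, 21.9% higher and 23.1% lower), and between early 2C and late 1C for 0 (0.00347% of all genes, 0 members with an unadjusted p under 0.05).

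**Figure D2:**
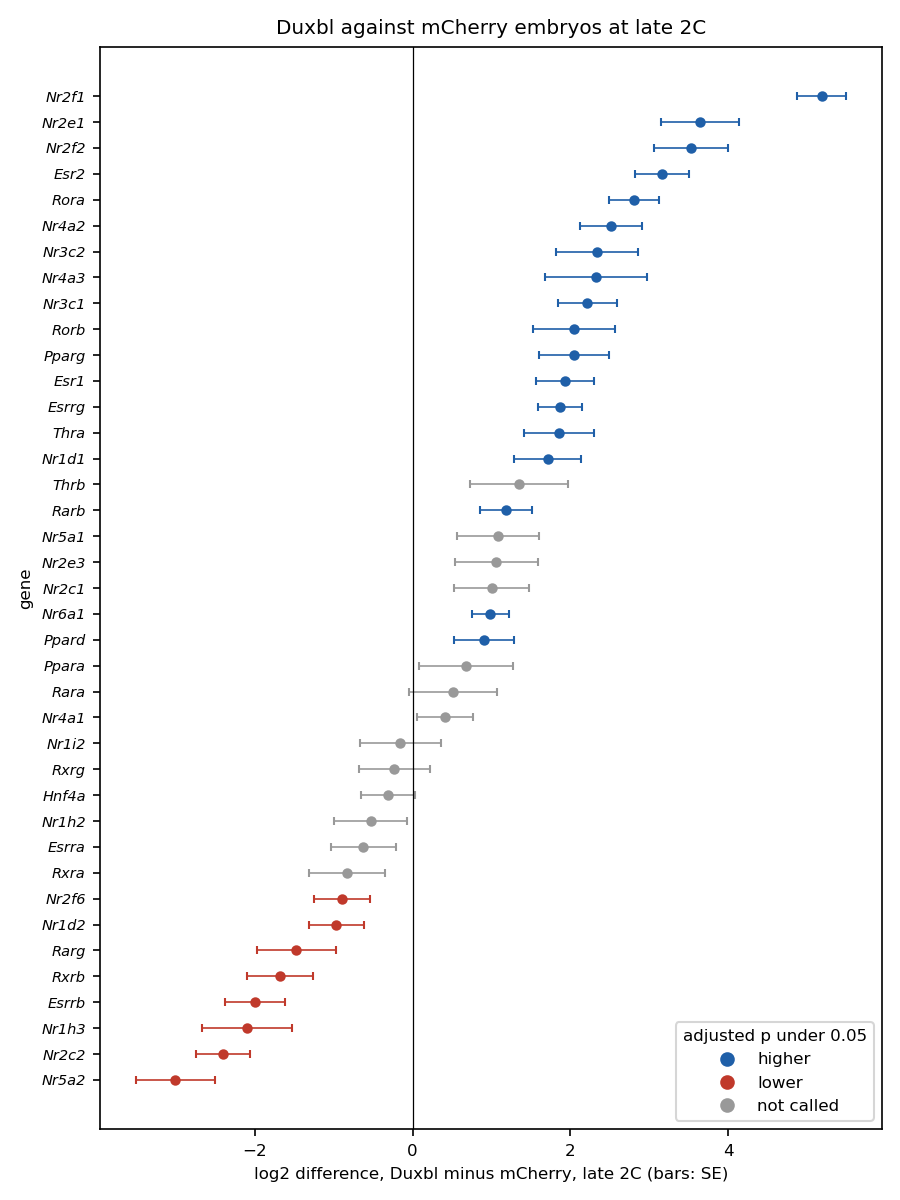
The log2 difference between Duxbl and mCherry embryos at late 2C (horizontal axis, points) with its SE (bars) is drawn for the 39 members tested (vertical axis), in blue where higher, red where lower and grey where not called. Differences run from -3.00 for Nr5a2 to 5.18 for Nr2f1, which stands apart from the next member, Nr2e1, at 3.64.

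Among the COUP-TF receptors, orphan receptors that mostly repress and that pattern the nervous system, heart and vessels, Nr2f1 and Nr2f2 came up from near 0. Nr2f1 (ENSMUSG00000069171, mm39 chromosome 13, 78337092 to 78347876, minus strand) had 31.2, 36.0, 43.9, 35.2 and 44.0 CPM in the Duxbl libraries numbered 1, 3, 4, 6 and 7. Its lowest, median and highest values were 0, 0.0508 and 0.202 CPM in mCherry embryos and 0, 0.0263 and 0.135 in uninjected embryos. No library without Duxbl mRNA came near the Duxbl libraries, which were close to one another, and the log2 difference from mCherry was 5.18 (SE 0.31, limma adjusted p = 2.08e-11). Nr2f2 (ENSMUSG00000030551, chromosome 7, 70001692 to 70016483, minus strand) had 37.8, 11.5, 35.0, 24.8 and 32.5 CPM in the Duxbl libraries and 0.294, 1.35 and 3.57 in mCherry embryos. Here too the groups did not overlap, with 1 Duxbl library well below the other 4, and the log2 difference was 3.53 (SE 0.47, limma adjusted p = 1.45e-06). Both rose within Duxbl embryos between early and late 2C, by 3.53 and 3.13 on the log2 scale, while neither change was called in uninjected embryos (-0.58 and -0.56). Per kilobase of exon Nr2f1 took place 10 among the 46 members in Duxbl embryos at late 2C, with 7.47 ± 1.1 CPM per kb, and place 43 in uninjected embryos. Nr2f6, the third of these receptors, was lower, with 0.268 ± 0.57 CPM against 1.27 ± 0.57 (log2 difference -0.90, limma adjusted p = 0.0338), both low levels.

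The kit does not mark strand, so reads from a gene and from an opposite gene that it overlaps cannot be told apart. A830082K12Rik, opposite to Nr2f1 over 1741 bp, had 2.66 CPM in Duxbl and 1.34 in mCherry embryos and was not called. B130024G19Rik, opposite to Nr2f2 over 1826 bp, had 8.50 and 0.328 CPM and was higher.

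Of the testicular receptors, which bind direct repeats of the half-site, Nr2c2 fell short of its normal rise. Nr2c2 (ENSMUSG00000005893, chromosome 6, 92068371 to 92151275, plus strand) went from 8.04 ± 2.7 to 124 ± 43 CPM between early and late 2C in uninjected embryos. At late 2C it had 15.7, 16.1, 46.6, 26.6 and 8.61 CPM in the Duxbl libraries and 67.3, 112 and 154 in mCherry embryos. Every Duxbl library lay below every control library (log2 difference -2.40, SE 0.34, limma adjusted p = 3.72e-06). At early 2C every Duxbl library had lain above every mCherry library, a difference that was not called. The Duxbl effect on Nr2c2 differed between late and early 2C by -3.22 on the log2 scale (SE 0.43, limma adjusted p = 1.88e-08). On the opposite strand Mrps25 overlaps its end by 4770 bp and moved the other way (69.8 CPM in Duxbl and 22.8 in mCherry embryos), and Gm44249 lies within it and moved the same way (4.99 and 49.6 CPM). Nr2c1, its paralog, was not called at late 2C, with 4.92 ± 2.2 CPM in Duxbl and 2.07 ± 1.5 in mCherry embryos.

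Nr2e1 (ENSMUSG00000019803, chromosome 10, 42437959 to 42459628, minus strand), the tailless repressor of neural stem cells, had higher values in Duxbl than in mCherry embryos at late 2C. It had 229.9, 225, 198, 195 and 188 CPM in the Duxbl libraries at late 2C, against 3.28, 21.1 and 54.4 in mCherry embryos and 125, 140.3 and 168 in uninjected embryos at early 2C. The Duxbl libraries lay above both sets, but overlapped the values at late 1C, of 158 to 224 CPM in uninjected and 153 to 195 in Duxbl embryos (log2 difference from mCherry at late 2C 3.64, SE 0.50, limma adjusted p = 2.11e-06). Their own change from early 2C was 0.68 and was not called, although the libraries of the 2 stages did not overlap.

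**Figure D3:**
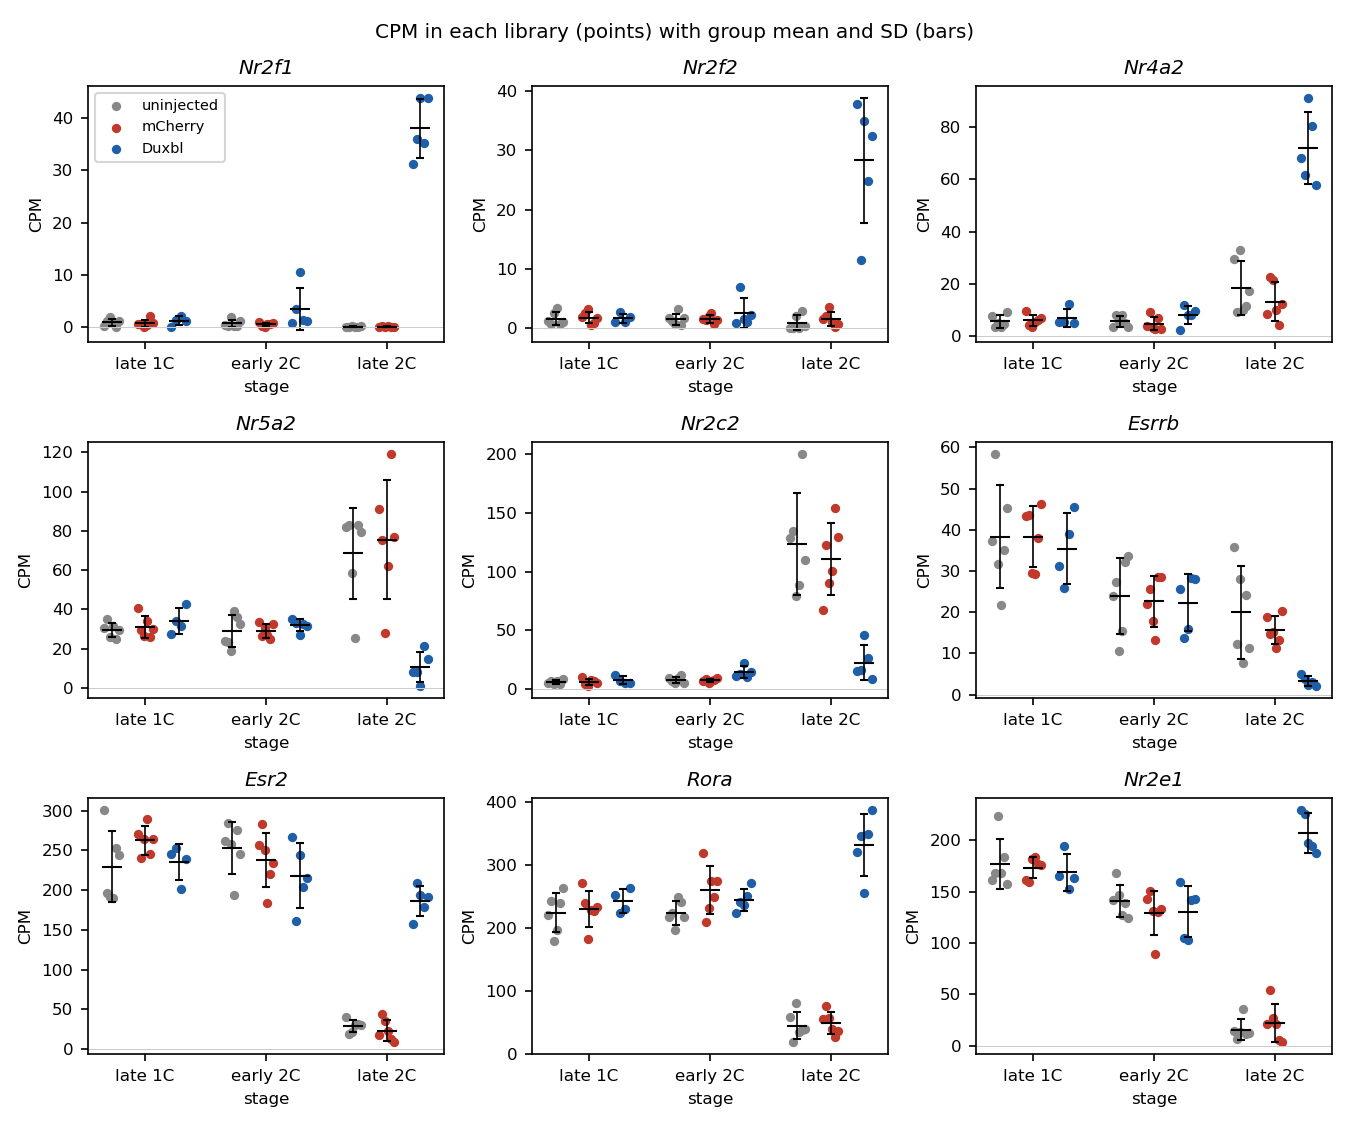
CPM (vertical axes, linear and different between panels) of 9 members in every library (points) at the 3 stages (horizontal axes), with the group mean and SD (bars), in grey for uninjected, red for mCherry and blue for Duxbl embryos. The top row shows members high at late 2C in Duxbl embryos, the middle row members low there, and the bottom row members that fell in uninjected embryos and were near or above their early 2C level in Duxbl embryos.

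The NR5A receptors bind as monomers to an extended half-site. Nr5a2 (ENSMUSG00000026398, chromosome 1, 136770309 to 136888186, minus strand) had 8.09, 8.23, 0.735, 21.1 and 15.0 CPM in Duxbl embryos at late 2C, against 27.8, 76.2 and 119 in mCherry and 25.4, 80.7 and 83.1 in uninjected embryos. The highest Duxbl library was below the lowest control library, and the library that stood apart was the lowest (log2 difference -3.00, SE 0.50, limma adjusted p = 2.64e-05). The gene rose between early and late 2C in uninjected embryos by 1.15 on the log2 scale, and fell in Duxbl embryos by 1.90. It was 1 of 10 members that rose in uninjected embryos and the sole one of them that fell in Duxbl embryos, a pattern seen in 9.53% of all genes that rose. Nr5a1, the steroidogenic factor, was not called between Duxbl and mCherry embryos (3.47 ± 2.7 and 1.08 ± 1.5 CPM). Nr6a1 (ENSMUSG00000063972, chromosome 2, 38613382 to 38817700, minus strand), known in mouse germ cells and for repressing Pou5f1 at gastrulation, had 342, 229, 544, 280.5 and 323 CPM in Duxbl libraries and 108, 172 and 216 in mCherry embryos. The groups did not overlap, though the lowest Duxbl library was close to the highest mCherry library (log2 difference 0.99, SE 0.23, limma adjusted p = 0.000999).

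The estrogen-related receptors, which have no known natural hormone and act on energy metabolism, moved apart. Esrrb (ENSMUSG00000021255, chromosome 12, 86407891 to 86568402, plus strand) had 4.93, 3.81, 2.40, 2.95 and 1.98 CPM in Duxbl libraries at late 2C, against 11.3, 14.9 and 20.2 in mCherry embryos. The groups did not overlap (log2 difference -2.0, SE 0.38, limma adjusted p = 0.000124). Its change between early and late 2C was not called in uninjected embryos (-0.34), while in Duxbl embryos it fell by 2.45. Esrrg was higher in Duxbl embryos, with 107.5 ± 38 CPM against 27.7 ± 5.0 (log2 difference 1.87, SE 0.28, limma adjusted p = 6.93e-06), and it rose within Duxbl embryos by 0.83 where it fell in uninjected embryos by 1.12. Esrra was not called (1.09 ± 0.66 and 2.30 ± 1.3 CPM).

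Both estrogen receptors were near their early level in Duxbl embryos at late 2C, and neither change between these stages was called. Esr2 (ENSMUSG00000021055, chromosome 12, 76167193 to 76224033, minus strand) had 158, 209, 194, 179 and 192 CPM in Duxbl libraries at late 2C, against 8.06, 19.6 and 43.4 in mCherry embryos. All Duxbl libraries lay far above all controls of that stage (log2 difference 3.16, SE 0.34, limma adjusted p = 8.34e-08), and their own change from early 2C was -0.21 and not called, against a fall by 3.14 in uninjected embryos. Esr1 had 59.1, 66.9, 147, 54.8 and 49.4 CPM in Duxbl libraries and 10.2, 18.6 and 24.9 in mCherry embryos. The library that stood apart was the highest, and the groups did not overlap (log2 difference 1.93, SE 0.37, limma adjusted p = 0.000119). The receptors of the adrenal steroids were also higher. Nr3c1, the glucocorticoid receptor, had 54.0 ± 24 CPM in Duxbl and 10.8 ± 4.0 in mCherry embryos (log2 difference 2.21, SE 0.37, limma adjusted p = 2.72e-05). Nr3c2, the mineralocorticoid receptor, had 1.25, 1.61, 31.4, 0.984 and 10.5 CPM in Duxbl libraries and at most 0.328 in mCherry embryos. Its groups did not overlap, but most of the mean of 9.16 came from 2 libraries, and the log2 difference of 2.34 (limma adjusted p = 0.000657) was 1.69 without the library that stood apart (limma adjusted p = 0.000742). Pgr, the progesterone receptor, was not tested at late 2C, with a mean of at most 0.332 CPM in any group.

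The members of the clock had split roles. Rora, which activates Bmal1, and Nr1d1, which represses it, both fell in uninjected embryos and were both higher in Duxbl embryos at late 2C. Rora (ENSMUSG00000032238, chromosome 9, 68561068 to 69295528, plus strand) had 320.1, 346, 255, 349 and 387.5 CPM in Duxbl libraries, against 27.2, 47.6 and 76.2 in mCherry embryos. The groups were far apart (log2 difference 2.81, SE 0.31, limma adjusted p = 1.46e-07). The Duxbl libraries were all above their early 2C mean of 244 CPM, but number 4 lay within the early 2C range of 223.5 to 270.4 CPM. The change of Rora between these stages in Duxbl embryos was not called. Nr1d1 had 44.3, 73.2, 52.8, 79.2 and 66.0 CPM in Duxbl libraries and 10.4, 18.9 and 33.5 in mCherry embryos. It lay between the 2 stages of the controls, and fell within Duxbl embryos by 1.73, from 209 ± 24 CPM. Its gene overlaps the end of Thra on the opposite strand by 1075 bp, and the 2 moved in the same direction. Nr1d2, its paralog, went the other way, with 21.7 ± 12 CPM in Duxbl and 38.2 ± 5.2 in mCherry embryos, in groups that overlapped (log2 difference -0.96, limma adjusted p = 0.0242). Without Duxbl library 3 or 7 Nr1d2 was no longer called, with log2 differences of -0.66 and -0.82. Rorb, a retinal and cortical relative of Rora, had 7.56, 6.38, 22.6, 1.17 and 10.3 CPM in Duxbl libraries and 0.141, 1.01 and 2.16 in mCherry embryos. A single Duxbl library lay within the mCherry range (log2 difference 2.05, SE 0.52, limma adjusted p = 0.00205).

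The NR4A receptors are immediate early genes that need no ligand. Nr4a2, known from dopaminergic neurons, had 68.1, 61.8, 91.2, 80.4 and 58.0 CPM in Duxbl libraries at late 2C, against 4.41, 11.2 and 22.8 in mCherry and 9.10, 14.5 and 32.8 in uninjected embryos. The groups did not overlap (log2 difference from mCherry 2.51, SE 0.40, limma adjusted p = 1.40e-05). Nr4a2 rose in the normal course as well, by 1.44, and by 3.11 within Duxbl embryos. Nr4a3 had 22.3, 11.2, 0.294, 3.14 and 24.6 CPM in Duxbl libraries, and its mCherry libraries reached 4.0. The groups overlapped through the Duxbl libraries numbered 4 and 6, and the log2 difference of 2.32 (limma adjusted p = 0.00383) was 2.99 without number 4 (limma adjusted p = 0.000118). Nr4a1 was not called, with means up to 1.02 CPM.

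Among the receptors of retinoids and thyroid hormone, Rarg was lower. It had 2.01, 7.53, 29.0, 5.06 and 1.29 CPM in Duxbl libraries at late 2C, against 11.8, 13.6 and 33.5 in mCherry embryos. The library that stood apart was within the mCherry range and the other 4 were below it (log2 difference -1.47, SE 0.50, limma adjusted p = 0.0158). The call was lost without Duxbl library 1 or 7, with log2 differences of -1.20 and -1.10, and with uninjected embryos as the control (-1.04). Rarb was higher at a low level (2.39 ± 1.8 and 0.444 ± 0.64 CPM), and Top2b, which overlaps it by 4624 bp on the opposite strand, was higher too (22.7 and 7.37 CPM). Rara was not called (7.40 ± 4.9 and 4.53 ± 2.6 CPM). Of the RXR partners Rxrb was lower, with 0.0402 ± 0.090 against 2.7 ± 1.6 CPM (log2 difference -1.68, limma adjusted p = 0.00146), and Rxra and Rxrg were not called. Thra, the thyroid hormone receptor alpha, had 13.8 ± 5.0 CPM in Duxbl and 3.19 ± 1.5 in mCherry embryos (log2 difference 1.86, SE 0.44, limma adjusted p = 0.00115), and it had 14.8 ± 4.5 CPM in Duxbl embryos at early 2C. Thrb was not called (9.52 ± 6.9 and 2.22 ± 1.7 CPM), and Vdr was not tested.

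Of the lipid sensors, Pparg was higher and Nr1h3 lower. Pparg had 22.7, 27.8, 12.8, 22.4 and 31.9 CPM in Duxbl libraries at late 2C, against 2.06, 5.55 and 8.84 in mCherry embryos. The groups did not overlap (log2 difference 2.04, SE 0.44, limma adjusted p = 0.00049), and against uninjected embryos, where Pparg was lower than in mCherry embryos, the difference was 3.18. Ppard, the most widely expressed of the PPARs, had 12 ± 5.0 and 6.04 ± 2.9 CPM and passed narrowly (log2 difference 0.90, limma adjusted p = 0.049), a call lost in 15 of 21 alternatives. Nr1h3 had 5.36, 1.10, 0, 0.656 and 0.0460 CPM in Duxbl libraries, against 1.32, 7.95 and 13.7 in mCherry embryos. Of the Duxbl libraries 1 lay inside the mCherry range (log2 difference -2.10, SE 0.57, limma adjusted p = 0.00343), and its Duxbl mean of 1.43 CPM was near that of 1.28 at early 2C. Ppara, Nr1h2, Nr1i2 (the pregnane X receptor) and Hnf4a were not called. Nr0b1 and Nr0b2, which lack the DNA-binding domain, and Nr1h4, Nr1i3 and Hnf4g were not tested at late 2C, and together with Pgr and Vdr their group means reached at most 1.06 CPM.

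Set against the normal course, the members sorted by direction. The means compared there share no library with the comparison of Duxbl and mCherry embryos. However, each fit also used libraries of the other comparison to estimate the spread. Of the 17 members that fell between early and late 2C in uninjected embryos, 11 were higher in Duxbl than in mCherry embryos at late 2C, 0 were lower and 6 were not called. Of the 10 that rose, 7 were lower, Nr4a2 and Rorb were higher and Esrra was not called. Among all genes that fell, 58.5% of those tested were higher and 3.90% lower, and among all that rose 61.8% were lower and 3.34% higher, shares near those of the members (64.7% and 70%). Of the 12 tested members with no call in the normal course, 5 were higher (Nr2f1, Nr2f2, Nr3c2, Nr4a3 and Ppard) and Esrrb was lower, against 25.0% higher and 14.9% lower among all such genes.

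**Figure D4:**
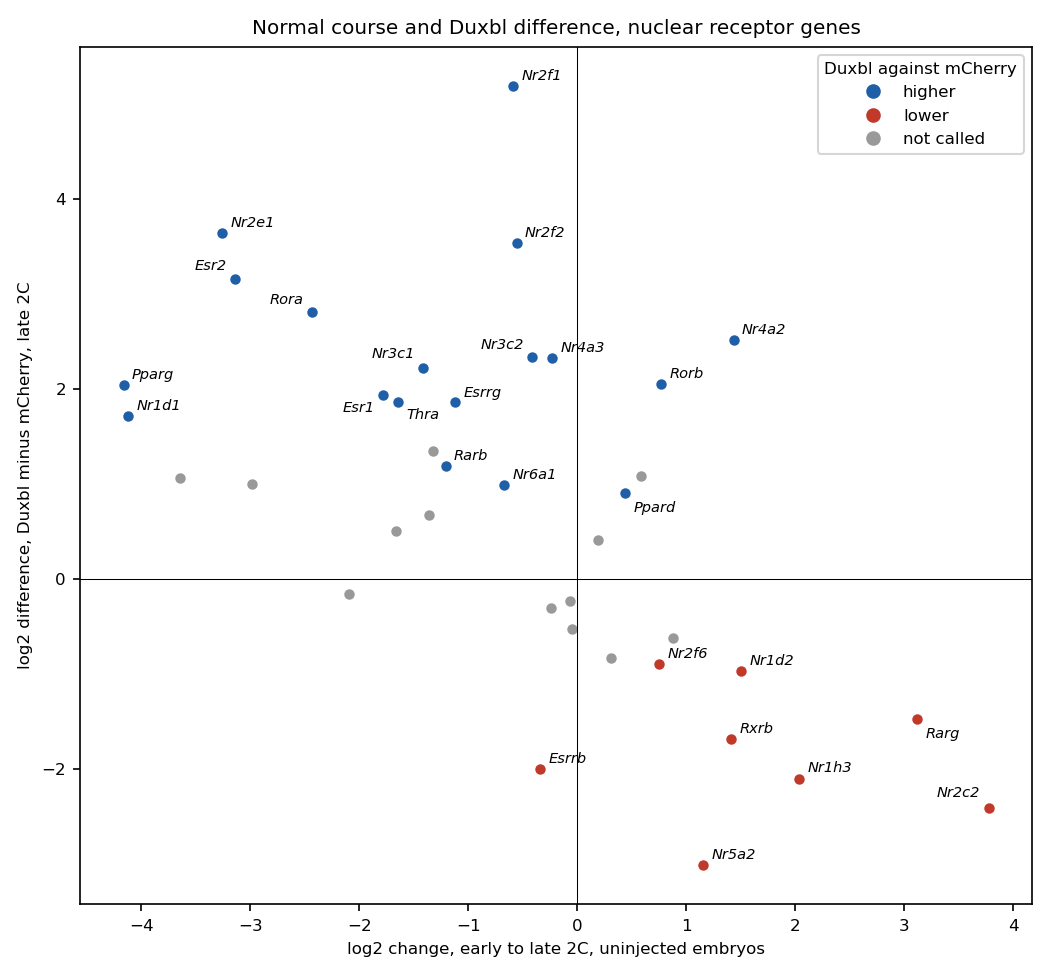
The log2 change between early and late 2C in uninjected embryos (horizontal axis) is plotted against the log2 difference between Duxbl and mCherry embryos at late 2C (vertical axis) for the 39 members tested in both (points, coloured by call). Most called members lie in the upper left or lower right, while Nr2f1 and Nr2f2 lie high near the vertical line and Nr4a2 and Rorb at the upper right.

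Within Duxbl embryos themselves 12 members rose and 6 fell between early and late 2C (39.2% of all genes were called, 20.4% higher and 18.8% lower), and 0 were called between late 1C and early 2C (0.868% of all genes, 0.0833% higher and 0.785% lower, 2 members with an unadjusted p under 0.05). Of the 17 members that fell in uninjected embryos, 4 fell in Duxbl embryos too (Nr1d1, Nr2c1, Nr2e3 and Nr1i2), 2 rose (Nr3c1 and Esrrg) and 11 were not called (23.5%, 11.8% and 64.7%). Among all genes that fell in uninjected embryos 42.7% fell in Duxbl embryos, 9.77% rose and 47.6% were not called. Of the 10 that rose in uninjected embryos, Nr4a2, Rarg and Rorb rose in Duxbl embryos (30%, against 24.9% of all genes that rose), Nr5a2 fell (10%, against 9.53%) and 6 were not called. In order of level per kilobase, the first 5 members of uninjected embryos at early 2C, Esr2, Nr1d1, Nr2e1, Nr6a1 and Rora, were the first 5 of Duxbl embryos at late 2C, where Nr2e1 had 55.8 ± 5.2 and Esr2 55.3 ± 5.7 CPM per kb, within each other's spread. In uninjected and mCherry embryos at late 2C 2 and 1 of them were among the first 5.

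The partners of the receptors moved in both directions at late 2C, as did all genes tested. Of those 55.9% were called, 26.8% higher and 29.1% lower, with a median log2 difference of -0.05. Of 15 coactivators tested 5 were higher, 3 lower and 7 not called between Duxbl and mCherry embryos, with a median difference of 0.60 on the log2 scale. Pprc1, a coactivator of the PGC-1 family, had 9.86 CPM in Duxbl and 136 in mCherry embryos, Prmt1, an arginine methyltransferase, 3.41 and 31.6, and Kat2b, an acetyltransferase, 5.84 and 19.7. Ncoa1, the first of the p160 coactivators, was higher, with 184 and 54.5 CPM. Of 8 corepressors tested 5 were higher and 3 lower, with a median of 1.14. Tbl1xr1 was higher (333 and 52.5 CPM), whereas its paralog Tbl1x (2.64 and 9.32 CPM) and Gps2 (8.36 and 79.9 CPM), all of the NCoR complex, were lower, and its deacetylase Hdac3 was higher (13.1 and 3.27 CPM). Of 8 chaperones of the steroid receptors 2 were higher and 5 lower, with a median of -1.88, and the lower ones included Fkbp4 (11.2 and 138 CPM), Bag1 (13.1 and 149 CPM), Stip1 (45.9 and 269 CPM) and Ppid (23.6 and 104 CPM).

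Ligand supply and target genes were read from other lists. Of 15 genes that make, carry or clear retinoic acid, 6 were higher and 1 lower, among them Cyp26a1, which degrades it and is itself a target (63.4 CPM in Duxbl and 16.4 in mCherry embryos), Dhrs3 (8.10 and 1.27), the receptor for retinol uptake Stra6 (3.51 and 0.0587) and the synthetic enzyme Aldh1a2 (12.6 and 3.29). Of 7 retinoic acid targets tested 4 were higher and 0 lower, and all were homeobox genes, namely Meis1 (18.9 and 1.27 CPM), Meis2 (1036 and 186 CPM), Hoxb1 (12 and 0.975 CPM) and Hoxb4 (2.01 and 0.0908 CPM). Of 16 targets of LXR and PPAR 2 were higher and 7 lower, with a median of -1.15, such as the desaturases Scd1 (4.96 and 40.8 CPM) and Scd2 (5.79 and 44.1 CPM) and the carnitine transferase Cpt1a (2.74 and 30.9 CPM), while the fatty acid transporter Cd36 was higher (67.9 and 14.0 CPM). The summed level of the 17 listed targets, which follows the most abundant of them, went the other way. It was 744.2 to 1098 CPM in Duxbl and 425.5 to 562.2 in mCherry embryos, without overlap, and Cd36 made up a small part of it. Of 15 clock genes 9 were higher and 3 lower, including Bhlhe40 (51.5 and 9.92 CPM) and Bhlhe41 (28.4 and 4.01 CPM), both higher, and the output genes Dbp (5.60 and 36.4 CPM) and Tef (13.3 and 52.1 CPM), both lower. Of 9 genes of steroid hormone synthesis 4 were higher and 3 lower, with Cyp19a1, the aromatase, at 18.1 and 3.85 CPM, Fdxr at 2.04 and 23.3, Srd5a1 at 0.967 and 6.33 and Por at 7.83 and 20.5. Of all genes tested, 26.8% were higher and 29.1% lower.

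Some markers of other sources of RNA were called at late 2C, as were 55.9% of all genes tested (26.8% higher and 29.1% lower). Their part in the results was not tested. The summed level of 10 cumulus and granulosa markers was 14.1 to 52.8 CPM in Duxbl embryos, 9.70 to 17.0 in mCherry and 7.08 to 21.0 in uninjected embryos, with 2 of the 4 tested higher (Cyp19a1 and Has2) and 1 lower (Tnfaip6), and with Inha listed at 0 in every Duxbl and mCherry library. The sums of 7 oviduct markers were 121 to 219, 104 to 206 and 147 to 207 CPM in the same order, with Ovgp1 higher (52.1 and 5.82 CPM in Duxbl and mCherry embryos), Tppp3 lower (13.0 and 37.0 CPM) and 3 not called. Those of 6 sperm markers were 3.50 to 31.7, 3.13 to 9.42 and 1.85 to 6.44 CPM, with Prm2 higher and Prm1, Tnp1 and Odf1 lower. Those of 4 blood markers were 0 to 13.1, 25.4 to 41.7 and 16.6 to 57.4 CPM, and both tested, Hba-a1 and Hba-a2, were lower.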

How the data were processed

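The deposited table gives 1 whole number per gene and library on the mm39 genome. The tools were, per the submitters' processing notes, featureCounts 2.0.4, Picard 3.0.0, STAR 2.7.10a, DESeq2 1.36.0, DESeq and Trimmomatic 0.39, with no roles given there. The authors' values were treated as a score and not as counts: in 19 of 50 libraries some whole numbers from 1 to 20 never occur, as after scaling and rounding. No 2 libraries held identical values. Per the labels' protocols, cDNA came from a SMART-Seq v4 kit and libraries from a Nextera XT kit. Because these are not counts, depth is unknown, and no counting interval was computed.

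Values were divided by totals times trimmed-mean factors over all 50 libraries (trims of 30% on ratios and 5% on abundances), giving CPM. limma 3.58.1 in R 4.3.3, with a trended and robust prior, was run on log2(CPM + 1). Genes entered a fit if their deposited value reached 10 in a number of libraries equal to the smallest group's size. Each stage had its own fit of 3 groups for the comparisons of treatments, and a fit of all 9 groups served for stages and differences of effects. Tests were two-sided. The fit was tested on simulated data in which a small share of the genes was changed, in both directions. At late 2C 55.9% of all genes tested were called between Duxbl and mCherry embryos, so that simulation cannot speak for the scaling or the error rate there.

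The members and lists were chosen with earlier results of these data known. By rule, values were given for members called between Duxbl and mCherry embryos at any stage if the higher of the 2 group means reached 5 CPM, and up to 4 called genes with the largest late 2C difference were named per other list. Members named outside this rule and the 3 promoters shown were chosen after their values were seen. Exon lengths came from GENCODE vM21, promoters from RefSeq. Same-numbered Duxbl and mCherry libraries at late 1C deviated together in 4 of 4 pairs (correlation 0.198 to 0.340), although the labels do not say what a number marks. Alternatives were another pseudocount, no filter, other scalings, voom weights, a replicate block, uninjected controls, other fits and leaving out each library, and, chosen after seeing the data, trimmed-mean factors within each fit.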

Additional observations from a re-analysis of the deposited data

Results flagged for a closer look

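In 6 groups 1 library lay far from the rest of its group, out of 148 groups of 4 to 6 libraries examined, where chance gives about 1 in 20. Nr1d1 had 166.8 CPM in the Duxbl library 4 at early 2C, and 211.9 to 226.2 in the others. Nr2e1 had 36.14 CPM in the uninjected library 5 at late 2C, against 6.647 to 14.26, and 89.07 CPM in the mCherry library 5 at early 2C, against 130.5 to 150.5. Nr4a2 had 12.3 CPM in the Duxbl library 6 at late 1C, against 4.961 to 5.405. In the Duxbl library 4 at late 2C, Rarg had 28.97 CPM, against 1.289 to 7.529, and Esr1 had 147.4 CPM, against 49.35 to 66.91.

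For 22 of the 23 members described in full, the effect of Duxbl mRNA differed between late 2C and early 2C in limma's interaction test. These members were chosen by a call at late 2C, which favours such a difference, and over all 44 members tested it was called for 25, against 44.9% of all genes. On the log2 scale, the late effect minus the early one was positive for the COUP-TF genes Nr2f1 (3.965) and Nr2f2 (3.246), for Nr2e1 (3.632) and Nr6a1 (0.888), and for the steroid receptors Esr2 (3.291), Esr1 (2.053), Nr3c1 (2.126) and Nr3c2 (2.015). It was positive too for Rora (2.881), Rorb (1.903), Nr1d1 (1.871), Nr4a2 (1.883), Nr4a3 (2.141), Pparg (2.127), Esrrg (1.886) and Thra (1.724). It was negative for Nr2c2 (-3.217), Nr5a2 (-3.135), Esrrb (-1.963), Rarg (-1.701), Nr1h3 (-1.664) and Nr1d2 (-1.316). Ppard, with 0.88, was not called.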

How the results depend on the processing

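Over 154 recomputed counts of members called, covering all 12 comparisons, none moved by more than 1.5 times. The late 2C count of 26 ranged from 23 to 30. With single libraries left out, 23 to 26 members were called at late 2C and 17 to 21 in the Duxbl step from early to late 2C, and 0 to 0 at late 1C, at early 2C and in the Duxbl step before. Of 483 recomputed differences of single members at late 2C, 463 kept direction and call, 20 kept direction and lost the call (Ppard, Nr1d2 and Rarg), and 0 turned. Library totals alone moved the median of all genes at late 2C from -0.05 to -0.26 and gave 17 members higher and 8 lower. A pseudocount of 0.1 raised the log2 difference of low genes, to 7.93 for Nr2f1, 4.31 for Nr2f2, 4.81 for Nr3c2, 4.03 for Nr4a3, 2.89 for Rorb and -3.53 for Nr1h3, and voom weights gave 9.12, 4.44, 6.30, 5.03, 3.06 and -4.21. Counts over all genes were less stable where few were called: at early 2C 89 with limma, 4 with voom weights, 163 against uninjected embryos and 57 without Duxbl library 5. At late 1C they were 4, and 1 with voom weights or a fit of all 9 groups, and 7 without Duxbl library 6 or 7. From late 1C to early 2C they were 844 in uninjected embryos, 1600 in a fit of those groups alone, and 250 in Duxbl embryos, ranging from 100 without 1 library to 734. Between mCherry and uninjected embryos at late 2C a fit of all 9 groups called 40 genes. With a replicate block, 27 members were called at late 2C, 19 higher and 8 lower, the 26 among them, and the block moved no count of members by over 1.5 times. Outside Duxbl against mCherry at late 1C, same-numbered libraries did not all deviate together. Between Duxbl and mCherry embryos 4 of 5 pairs were above 0.1 at early 2C (median correlation 0.265), with 4 of 5 libraries closest to their own number, and 0 of 5 pairs were at late 2C (median 0.043). These libraries are therefore treated as sharing a number only. The spread between libraries at late 2C and the unknown depth limit statements on members below about 5 CPM.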
